A study of Mus musculus with 49 samples.

Results

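Transcripts of 9 genes that encode subunits of the Polycomb repressive complexes were followed from normal mouse haematopoietic cells into acute myeloid leukaemias that the fusion oncogene MLL-AF9 (MA9) had started. The genes were Bmi1, Rnf2, Cbx2, Cbx7, Cbx8, Ezh2, Ezh1, Eed and Suz12. They were chosen by name, and all 9 were found by their Ensembl identifiers among the 38253 genes of the expression table. RNA sequencing had been done on 49 samples in 10 groups, all labelled C57BL/6J, wild type and 6 to 12 weeks of age. The 30 normal samples had been sorted by surface markers. They held 5 of LT-HSC and 5 of ST-HSC (stem cells with long-term and short-term repopulating ability), 6 of MPP (multipotent progenitors), 5 of CMP and 5 of GMP (progenitors of all myeloid cells, and of granulocytes and macrophages) and 4 of MEP (progenitors of megakaryocytes and red cells). The 19 leukaemias were 3 of STHSC:MA9, 6 of MPP:MA9, 4 of CMP:MA9 and 6 of GMP:MA9. Each is named for the normal cell that had been infected with a retrovirus carrying MLL-AF9 and GFP and then given to irradiated mice. By the study's methods leukaemic recipients were killed when their health declined, and survival after transplant differed by origin. The labelled age therefore need not be the age at collection of the leukaemias, which the labels do not give. By the study's methods the leukaemia cells were sorted for GFP from the spleen, whereas their label names bone marrow, so that tissue, GFP sorting and transformation cannot be told apart in any comparison of a leukaemia with its normal cell. The fusion was expressed from a viral vector, the sorted leukaemia was a bulk population, and each sample came from its own mouse.

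Polycomb group proteins keep developmental genes silent through chromatin. Polycomb repressive complex 2 (PRC2) methylates a lysine of histone H3 with either Ezh2 or Ezh1 as the catalytic subunit, and needs Eed and Suz12 for activity. Polycomb repressive complex 1 (PRC1) is built on the ubiquitin ligases Rnf2 or Ring1 with a PCGF protein such as Bmi1, and its canonical forms carry a CBX protein, such as Cbx2, Cbx7 or Cbx8, that reads the methyl mark. In blood, Bmi1 is known for its part in stem cell self-renewal, Ezh2 is the form of dividing cells, and Ezh1 is the form kept in resting cells.

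Levels are given as FPKM, a fragment count divided by transcript length and by library size, so that different genes can be set side by side. Read totals are not part of such values, and relative depth read from the steps of low values ranged from 0.484 to 1.53 times that of the median sample. The STHSC:MA9 samples stood at 0.56, 0.595 and 0.848. Mitochondrial genes took 12.5% to 36.7% of the summed FPKM. The sorted identities were checked on lists of marker genes. Stem cell markers (6 genes) summed to 182 to 665 FPKM in LT-HSC, 212 to 363 in ST-HSC, 286 to 431 in MPP and 9.61 to 14.4 in MEP. These sums did not separate LT-HSC, ST-HSC and MPP. Granulocyte-macrophage markers (5 genes) were highest in GMP at 17320 to 25940, and megakaryocyte-erythrocyte markers (5 genes) were highest in MEP at 2919 to 3429. The latter also ran from 482.3 to 2865 in LT-HSC and from 247.5 to 2809 in CMP. LT-HSC replicates 4 and 5 and ST-HSC replicates 4 and 5 stood apart, with S100a8, a mature granulocyte gene, at 20265, 10324, 12625 and 2201 FPKM against 6.49 to 352 in the other 6 samples of these groups. Mature red cell markers (3 genes) also varied widely, with sums of 57.2 to 50820 FPKM in LT-HSC (median 930) and 59.6 to 27500 in ST-HSC (median 4292). Results that rest on LT-HSC or ST-HSC are therefore given with and without these 4 samples where the call differed. In bulk samples, fewer cells that express a gene and less RNA per cell cannot be told apart.

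The members lie on 6 chromosomes (NCBIM37 assembly, GENCODE M1). Bmi1 (ENSMUSG00000026739) spans chr2:18598645-18608256 on the plus strand, Rnf2 (ENSMUSG00000026484) chr1:153316536-153347953 on the minus strand and Cbx7 (ENSMUSG00000053411) chr15:79746237-79801549 on the minus strand. Cbx2 (ENSMUSG00000025577, chr11:118884276-118892584, plus strand) and Cbx8 (ENSMUSG00000025578, chr11:118897619-118902283, minus strand) are neighbours. Ezh1 (ENSMUSG00000006920, chr11:101052429-101087777, minus strand) and Suz12 (ENSMUSG00000017548, chr11:79806608-79847625, plus strand) lie on the same chromosome, Ezh2 (ENSMUSG00000029687) spans chr6:47480273-47545340 and Eed (ENSMUSG00000030619) chr7:97103166-97129493, both on the minus strand. Of the 31-base windows of the exons, 6.55% in Bmi1, 4.10% in Suz12 and 2.64% in Ezh2 also occur in another gene, and antisense genes overlap the exons of Ezh2 by 174 bases and of Suz12 by 178 bases. The libraries did not mark strand, so a small part of these 3 values is uncertain.

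The start regions of the catalytic subunits and of Suz12 are shown because Ezh2 and Ezh1 moved in opposite directions in the data while Suz12 moved little. RefSeq (GRCm38.p6) gave a promoter for 8 of the 9 members, Cbx2 being the exception. Each sequence runs 5′ to 3′ from 250 bases before to 20 bases after the annotated start. Capitals mark the words TTTGGCGC and TTTCCCGC, forms of the site bound by E2F factors of the cell cycle, which were searched on both strands and do not overlap in any of the sequences shown. The positions are chr6:47595011-47595280 on the minus strand for Ezh2, chr11:101226444-101226713 on the minus strand for Ezh1 and chr11:79992856-79993125 on the plus strand for Suz12.
Ezh2: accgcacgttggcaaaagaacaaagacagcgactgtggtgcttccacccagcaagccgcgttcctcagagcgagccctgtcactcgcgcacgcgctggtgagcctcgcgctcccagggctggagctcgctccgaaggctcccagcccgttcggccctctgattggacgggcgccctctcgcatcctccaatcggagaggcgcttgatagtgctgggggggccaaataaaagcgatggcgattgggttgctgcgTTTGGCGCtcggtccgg
Ezh1: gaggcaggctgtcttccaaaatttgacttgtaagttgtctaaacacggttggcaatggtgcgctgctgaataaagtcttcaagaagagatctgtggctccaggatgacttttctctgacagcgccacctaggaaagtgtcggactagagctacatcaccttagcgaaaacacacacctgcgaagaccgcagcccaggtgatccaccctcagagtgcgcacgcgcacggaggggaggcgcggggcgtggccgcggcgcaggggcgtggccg
Suz12: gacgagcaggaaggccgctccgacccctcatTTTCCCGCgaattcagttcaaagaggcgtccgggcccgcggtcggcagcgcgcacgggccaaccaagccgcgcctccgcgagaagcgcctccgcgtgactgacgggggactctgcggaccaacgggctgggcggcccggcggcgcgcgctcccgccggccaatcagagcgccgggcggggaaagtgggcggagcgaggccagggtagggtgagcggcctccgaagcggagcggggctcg
Ezh2 held TTTGGCGC beginning 3 bases downstream of the start and Suz12 held TTTCCCGC 219 bases upstream. The other 6 promoters held neither word in the 300 bases searched. Of 27025 promoters of the same length, 441 (1.63%) held at least 1 of the words. These matches describe letters and do not show that a factor is bound.

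**Figure D1:**
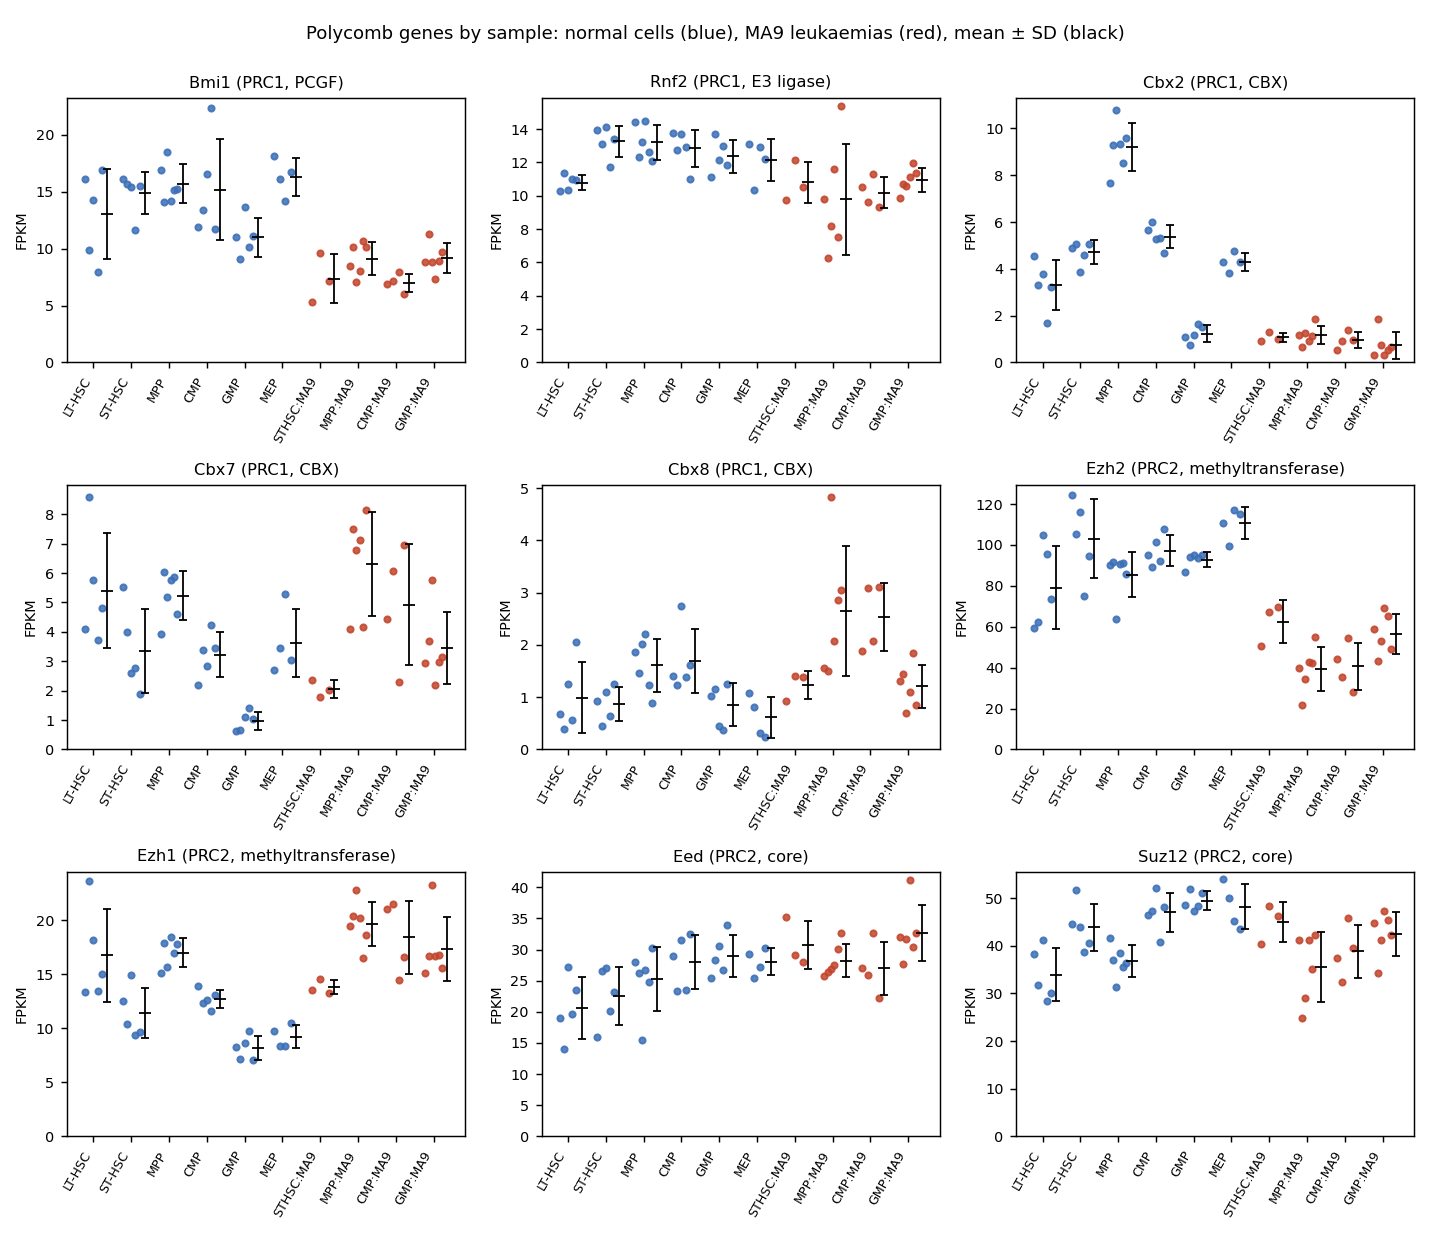
FPKM of the 9 Polycomb genes (vertical axes, from 0) in each of the 49 samples, by group, with normal cells in blue, leukaemias in red and the group mean ± SD in black. Cbx2 lay between 0.3 and 1.87 in every leukaemia and between 7.68 and 10.77 in MPP, and Ezh2 was lower in each leukaemia group than in its normal cell.

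The main question was how each gene changed between a normal cell and the leukaemia started from it. Ezh2 and Cbx2 were lower in the leukaemia at all 4 origins, Bmi1 was lower at 3 of them, and Ezh1 was higher at 2. Of the 36 tests (9 genes at 4 origins), 17 passed at an adjusted p below 0.05 (limma on log2(FPKM + 1), Benjamini-Hochberg over 12600 genes), 5 of them higher and 12 lower. Many other genes passed too, so the counts stand beside those of the whole table. In STHSC:MA9 against ST-HSC, 4 members passed, 1 higher and 3 lower, where 48.4% of all genes did (23.8% higher and 24.6% lower). In MPP:MA9 against MPP, 5 passed, 1 higher and 4 lower, beside 62.5% (27.7% and 34.8%). In CMP:MA9 against CMP, 4 passed, 1 higher and 3 lower, beside 59.8% (23.9% as higher, and 4530 of the 12600 genes as lower). In GMP:MA9 against GMP, 4 passed, 2 higher and 2 lower, beside 58.4% (29.7% and 28.7%). For the mean change over the 4 origins all 9 members passed, 4 higher and 5 lower, where 77.3% of genes passed (34.4% higher and 42.9% lower). At the single origins the counts of members were near those of the table.

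Bmi1, the PCGF subunit, was lower in the leukaemias. It measured 16.12, 15.72, 15.38, 11.67 and 15.53 FPKM in the 5 ST-HSC samples and 5.33, 9.6 and 7.17 in STHSC:MA9. In MPP it ran from 14.13 through a median of 15.23 to 18.53, and in MPP:MA9 from 7.07 through 9.34 to 10.68. The 5 CMP samples held 11.93, 13.42, 16.52, 22.39 and 11.71 FPKM and the 4 CMP:MA9 samples 6.88, 7.18, 7.94 and 6.0. No leukaemia of these 3 groups reached the lowest sample of its normal cell. The log2 changes were -0.95 ± 0.17 (SE, adjusted p = 1.56e-05), -0.73 ± 0.13 (1.33e-05) and -0.98 ± 0.16 (1.53e-06). GMP differed from these: its 5 samples held 11.01, 9.08, 13.63, 10.13 and 11.11 FPKM, GMP:MA9 ran from 7.33 through 8.88 to 11.33, and the groups overlapped, with a log2 difference of -0.24 ± 0.14 (adjusted p = 0.145). An F test of whether the change differed among the 4 origins gave an adjusted p of 0.0135 for Bmi1. That call was lost when samples were rescaled by median ratios (0.0537).

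Rnf2, the main ubiquitin ligase of PRC1, moved less. Its group means lay between 9.79 and 13.3 FPKM over all 10 groups. The change from MPP (12.11, median 12.92, to 14.48 FPKM) to MPP:MA9 (6.24, median 8.98, to 15.41) passed, at -0.45 ± 0.12 on the log2 scale (adjusted p = 0.00123), although MPP:MA9 replicate 6 stood above every MPP sample. At the other 3 origins the differences were -0.27 ± 0.15, -0.31 ± 0.14 and -0.16 ± 0.12 for ST-HSC, CMP and GMP, and none passed (adjusted p = 0.128, 0.0517 and 0.268).

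Cbx2, a chromodomain subunit of canonical PRC1, showed the steepest differences of the 9 genes. MPP held 7.68 to 10.77 FPKM with a median of 9.31, and MPP:MA9 held 0.67 to 1.86 with a median of 1.15, a mean level 7.87 times lower. ST-HSC samples measured 4.91, 5.08, 3.86, 4.6 and 5.07 FPKM and STHSC:MA9 samples 0.92, 1.29 and 0.99. In CMP the values were 5.66, 5.99, 5.26, 5.32 and 4.67, and in CMP:MA9 they were 0.53, 0.93, 1.38 and 0.94. These 3 pairs of groups were fully separate. The log2 changes were -2.25 ± 0.15 for MPP (adjusted p = 2.61e-15), -1.46 ± 0.19 for ST-HSC (5.64e-08) and -1.73 ± 0.17 for CMP (1.82e-10). GMP was already low at 1.08, 0.74, 1.17, 1.66 and 1.53 FPKM, and GMP:MA9 ran from 0.3 through 0.58 to 1.87, with replicate 2 the highest. The groups overlapped and the log2 change was -0.41 ± 0.16 (adjusted p = 0.0256), a call that was lost without GMP replicate 4 or 5 or GMP:MA9 replicate 1 or 4 (0.0692 to 0.08). The change differed among origins (F test, adjusted p = 2.93e-07). The 4 leukaemia groups lay within 0.732 to 1.17 FPKM on average and the 4 normal groups within 1.24 to 9.2.

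Cbx7 and Cbx8, the other chromodomain members, were not lower in the mean over origins. Cbx7 measured 0.63, 0.67, 1.09, 1.4 and 1.04 FPKM in GMP and 2.18 to 5.75 with a median of 3.06 in GMP:MA9, with no overlap and a log2 change of 1.15 ± 0.21 (adjusted p = 1.77e-05). In ST-HSC it held 5.52, 3.98, 2.59, 2.76 and 1.87 FPKM and in STHSC:MA9 2.37, 1.78 and 2.03, a difference of -0.45 ± 0.25 that did not pass (0.143) but did without LT-HSC and ST-HSC replicates 4 and 5 (-0.68, 0.0404). The differences for MPP (0.20 ± 0.20) and CMP (0.43 ± 0.23) did not pass (0.392 and 0.106), and the F test among origins gave 0.00169. Cbx8 was low throughout, with group means of 0.613 to 2.65 FPKM. Its change in MPP:MA9 (1.5, median 2.47, to 4.83 FPKM) against MPP (0.88, median 1.66, to 2.2) was 0.44 ± 0.19 (adjusted p = 0.0414). This call rested on few samples and was lost without any of MPP replicates 2, 5 and 6 or MPP:MA9 replicates 3, 5 and 6 (0.0645 to 0.169), with a pseudocount of 0.1 (0.0732) and without a filter on low values (0.0577).

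**Figure D2:**
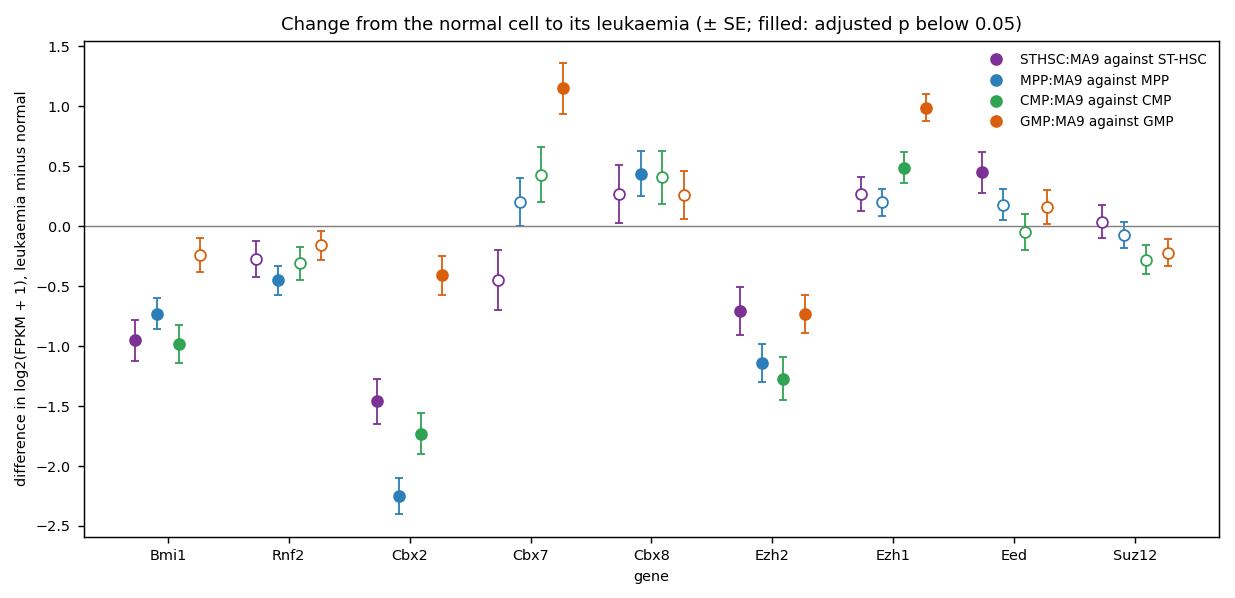
Difference in log2(FPKM + 1) between each leukaemia group and its normal cell (vertical axis, ± SE) for the 9 genes (horizontal axis), with 1 colour for each of the 4 origins and filled symbols at an adjusted p below 0.05. Ezh2 and Cbx2 lie below 0 at all 4 origins, and Cbx7 runs from -0.45 at ST-HSC to 1.15 at GMP.

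Cbx6, a further CBX protein of canonical PRC1, moved in the direction of Cbx2. Its level was 3.22 to 5.84 FPKM in ST-HSC and 0 to 0.06 in STHSC:MA9, and 5.82 to 9.09 in MPP and 0.21 to 1.93 in MPP:MA9. In CMP it was 3.61 to 5.57 FPKM and in CMP:MA9 0.15 to 0.87, and in GMP it was 1.52 to 2.52 and in GMP:MA9 0.16 to 0.65. No leukaemia reached the lowest sample of its normal cell. The log2 change was -2.42 ± 0.22 at ST-HSC (adjusted p = 2.79e-11), -2.33 ± 0.18 at MPP (7.01e-14), -1.94 ± 0.20 at CMP (4.61e-10) and -1.13 ± 0.18 at GMP (3.22e-06), and it differed among origins (F test, 0.000761).

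Ezh2, the PRC2 methyltransferase of dividing cells, was lower in every leukaemia group than in its normal cell. ST-HSC samples held 124.23, 105.38, 116.24, 75.23 and 94.52 FPKM and STHSC:MA9 samples 50.58, 67.26 and 69.69. In MPP the range was 63.72 to 91.63 with a median of 90.35, and in MPP:MA9 it was 21.84 to 54.78 with a median of 41.02. CMP held 95.21, 88.98, 101.52, 92.02 and 107.77 FPKM, and CMP:MA9 44.23, 35.47, 54.7 and 28.19. GMP held 86.55, 93.91, 94.96, 93.82 and 95.03, and GMP:MA9 43.42 to 68.95 with a median of 55.92. None of the 4 pairs of groups overlapped. The log2 changes were -0.71 ± 0.20 at ST-HSC (adjusted p = 0.00333), -1.14 ± 0.16 at MPP (8.64e-08), -1.27 ± 0.18 at CMP (2.45e-07) and -0.73 ± 0.16 at GMP (0.000293). The F test among origins did not pass (0.123). Groups that do not overlap were common in the table: 39.6%, 40.3%, 48.4% and 39.6% of genes in the order of origins above, beside 4, 3, 4 and 3 of the 9 members.

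Ezh1, the methyltransferase of resting cells, moved the other way. GMP held 8.22, 7.17, 8.67, 9.75 and 7.1 FPKM and GMP:MA9 15.07 to 23.27 with a median of 16.68, a mean level 2.12 times higher. CMP held 13.88, 12.32, 12.59, 11.6 and 13.09, and CMP:MA9 21, 21.49, 14.5 and 16.57. Both pairs were separate, with log2 changes of 0.99 ± 0.11 (adjusted p = 5.12e-09) and 0.49 ± 0.13 (0.00121). At ST-HSC the difference was 0.27 ± 0.14 (0.0976) and at MPP 0.20 ± 0.11 (0.115), and both normal groups overlapped with their leukaemias. The change differed among origins (F test, adjusted p = 0.000668).

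The balance of the methyltransferases was taken from both. The ratio of Ezh2 to Ezh1 FPKM within a sample ran from 2.64 to 14.1 over the 30 normal samples, with a median of 7.97, and from 1.07 to 5.25 over the 19 leukaemias, with a median of 2.60. By origin the mean went from 9.13 ± 1.12 (SD, n = 5) in ST-HSC to 4.54 ± 0.764 (n = 3) in STHSC:MA9, from 5.04 ± 0.634 (n = 6) to 2.04 ± 0.68 (n = 6) in MPP:MA9, from 7.66 ± 0.591 (n = 5) to 2.31 ± 0.998 (n = 4) in CMP:MA9 and from 11.5 ± 1.65 (n = 5) to 3.33 ± 0.769 (n = 6) in GMP:MA9. Within each of these 4 pairs the leukaemias lay below every normal sample. Ezh1 made up 34.4% ± 8.39 (SD, n = 6) of the summed EZH transcripts in MPP:MA9 and 16.7% ± 1.81 (n = 6) in MPP, and 23.8% ± 4.52 (n = 6) in GMP:MA9 and 8.1% ± 1.06 (n = 5) in GMP. The sum of both genes ran from 42.2 to 85.6 FPKM in the leukaemias and from 72.8 to 136.7 in the normal samples, so that the ranges overlapped. These ratios and shares are descriptions and were not tested beyond the single genes.

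**Figure D3:**
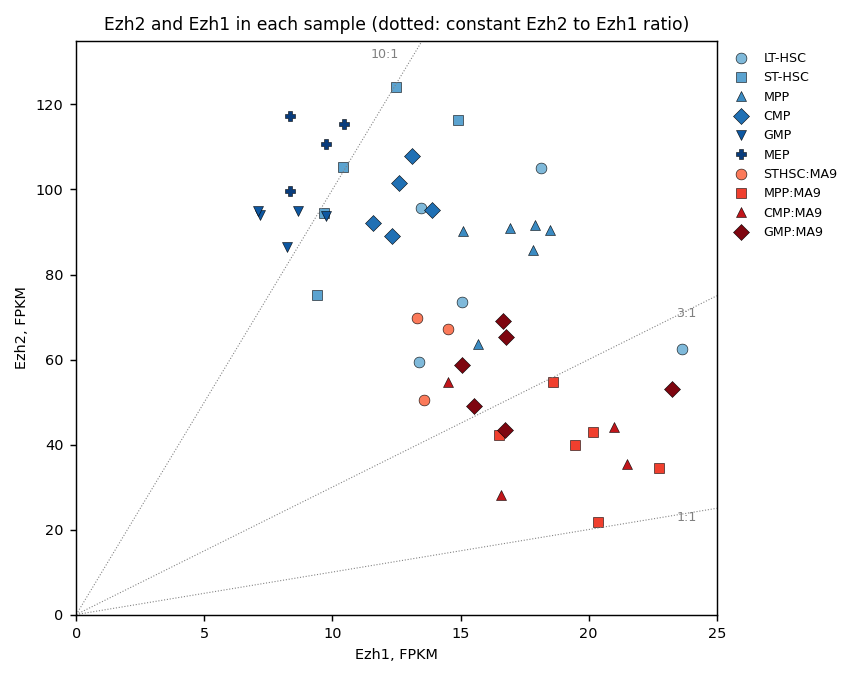
Ezh2 FPKM (vertical axis) against Ezh1 FPKM (horizontal axis) in each of the 49 samples, with normal groups in blue shades, leukaemias in red shades and dotted lines of constant ratio. The leukaemias fall at ratios of 1.07 to 5.25 and the normal samples at 2.64 to 14.1.

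Eed and Suz12, the core partners that hold the methyltransferase, changed little beside Ezh2. Eed ran from 27.95 to 35.21 FPKM in STHSC:MA9 and from 15.9 to 26.96 in ST-HSC, with a log2 change of 0.45 ± 0.17 (adjusted p = 0.0245). That call was lost without STHSC:MA9 replicate 1 (0.142) or ST-HSC replicate 1 (0.0934), and without LT-HSC and ST-HSC replicates 4 and 5 (0.0638). At the other origins Eed differed by 0.18 ± 0.13, -0.05 ± 0.15 and 0.16 ± 0.14 (MPP, CMP, GMP), and none passed (0.241, 0.803 and 0.322). The mean over the 4 origins was 0.19 ± 0.07 (0.023), and 0.0588 without STHSC:MA9 replicate 1. Suz12 differed by 0.04 ± 0.14, -0.07 ± 0.11, -0.28 ± 0.12 and -0.22 ± 0.11 in the same order of origins, with ST-HSC first, and none passed (0.844, 0.613, 0.0539 and 0.0929). Its mean change of -0.13 ± 0.06 had an adjusted p of 0.0473, which rose above 0.05 in 26 of the 40 fits that left out 1 sample (0.0506 to 0.105) and to 0.269 after median-ratio scaling. Eed and Suz12 therefore stood at 27 to 32.6 and 35.6 to 44.9 FPKM in the leukaemia groups on average, beside Ezh2 at 39.3 to 62.5.

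Over the 4 origins the mean log2 changes were -1.46 ± 0.08 for Cbx2, -0.96 ± 0.09 for Ezh2, -0.73 ± 0.08 for Bmi1 and -0.30 ± 0.07 for Rnf2 on the lower side (adjusted p = 9.41e-18, 3.05e-12, 6.96e-11 and 0.000123). On the higher side they were 0.49 ± 0.06 for Ezh1, 0.35 ± 0.11 for Cbx8 and 0.33 ± 0.11 for Cbx7 (5.67e-09, 0.00389 and 0.00756). The change differed among origins for 4 of the 9 members (Bmi1, Cbx2, Cbx7 and Ezh1) where it did for 38.0% of all genes. Median-ratio scaling moved the median of all genes by 0.15 on the log2 scale for CMP and by 0.03, 0.08 and -0.00 for ST-HSC, MPP and GMP, and no member change that had passed turned its sign.

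Other measured features moved with the leukaemias. All 12 genes of a cell cycle list were lower in the mean over origins, with a median log2 change of -0.55 beside -0.08 for all genes, and their summed FPKM was 366 to 1042 in the leukaemias and 807 to 1347 in the matched normal samples. By origin, 3, 7, 7 and 11 of the 12 passed as lower (ST-HSC, MPP, CMP, GMP) and none as higher. Among all genes, 24.6%, 34.8% and 28.7% passed as lower at ST-HSC, MPP and GMP, and 4530 of 12600 did at CMP. The count of 3 of 12 at ST-HSC was thus near the share of all genes. As higher, 23.8%, 27.7%, 23.9% and 29.7% of all genes passed in the same order of origins. These shares also stand beside the marker counts that follow. Markers of mature granulocytes (5 genes) were all higher in the mean over origins. Their summed FPKM was 592 to 42650 in the leukaemias and 10.6 to 36250 in ST-HSC, MPP, CMP and GMP, and of the 5, 4, 5, 4 and 0 passed as higher in the same order of origins. Lists of other cell types did not all move alike. B cell markers (3 genes) averaged 32.2, 25.5, 20 and 25.6 FPKM when summed (ST-HSC, MPP, CMP, GMP). In the leukaemias of these origins they averaged 18.2, 36, 32.1 and 27.9. Markers of the progenitor sorting gate (4 genes) averaged 219, 432, 272 and 297 in the normal cells, and 244, 250, 256 and 241 in the leukaemias. Stem cell markers averaged 335 FPKM in MPP and 34.8 in MPP:MA9 when summed, and 5, 4, 5 and 3 of the 6 passed as lower. Megakaryocyte-erythrocyte markers averaged 1137 in CMP and 3.37 in CMP:MA9, and 5, 5, 5 and 2 of the 5 passed as lower. Granulocyte-macrophage markers averaged 21232 in GMP and 979 in GMP:MA9, where all 5 passed as lower, and of the 5, 1 passed as lower at each other origin and 2 as higher at ST-HSC. Mature red cell markers averaged 7260 in ST-HSC and 63.8 in STHSC:MA9, and 3, 0, 2 and 0 of the 3 passed as lower. The part of these lists in the changes of the Polycomb genes was not tested. In CMP:MA9 the T cell markers Cd3e and Cd3g and the erythroid factor Gata1 were listed at 0 in all 4 samples. The summed T cell markers averaged 2.15, 0.19, 0.188 and 0.456 FPKM in ST-HSC, MPP, CMP and GMP. In STHSC:MA9, MPP:MA9 and GMP:MA9 they averaged 0.173, 0.665 and 0.69. Their median in normal CMP was already 0.

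The leukaemias were next compared with each other, to ask whether the cell of origin left a difference in these genes. Cbx2 was under the mean of 1 FPKM required for testing there, so 8 members were tested. Across the 4 leukaemia groups 2 members passed, Cbx7 (F test, adjusted p = 0.0196) and Cbx8 (0.0481), where 13.3% of 12128 genes did. Cbx7 held 2.37, 1.78 and 2.03 FPKM in STHSC:MA9, 4.08 to 8.16 with a median of 6.97 in MPP:MA9, 4.42, 6.06, 2.28 and 6.95 in CMP:MA9 and 2.18 to 5.75 with a median of 3.06 in GMP:MA9. STHSC:MA9 was separate from MPP:MA9 and overlapped with CMP:MA9 and GMP:MA9. Of 48 tests over the 6 pairs of leukaemias, 4 passed. STHSC:MA9 against MPP:MA9 differed in Cbx7 by -1.22 ± 0.27 (adjusted p = 0.00867) and in Ezh1 by -0.48 ± 0.15 (0.0424), where 11.2% of genes passed, 8.87% as lower. MPP:MA9 was above GMP:MA9 in Cbx7 by 0.72 ± 0.22 (0.0346) and in Cbx8 by 0.68 ± 0.20 (0.0296), where 15.9% of genes passed, 11.3% as higher. No member passed in the other 4 pairs, where 0.157% to 1.10% of genes did (0.107% to 0.923% as higher and 0.0495% to 0.470% as lower).

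These differences among leukaemias were not stable. After a correction for GC content and length none of the 48 tests passed, with Cbx7 in STHSC:MA9 against MPP:MA9 at -0.73 (adjusted p = 0.16) and Cbx7 in MPP:MA9 against GMP:MA9 at 0.27 (0.547). Leaving out STHSC:MA9 replicate 2 took the first of these to 0.0514. Ezh1 in STHSC:MA9 against MPP:MA9 was lost without any sample but MPP:MA9 replicate 5 (0.0569 to 0.147). Cbx7 in MPP:MA9 against GMP:MA9 was lost in 8 of 12 fits that left out 1 sample, all but those without MPP:MA9 replicates 1 and 5 or GMP:MA9 replicates 2 and 3 (0.0585 to 0.0802). Cbx8 there was lost without replicate 3 or 6 of either group, MPP:MA9 replicate 5 or GMP:MA9 replicate 4 (0.0506 to 0.0715). The F test was lost without STHSC:MA9 replicate 2 or 3 for Cbx7 (0.0604 and 0.0516) and in 14 of 19 fits for Cbx8 (0.0504 to 0.0883). Ezh2 was 62.5 ± 10.4 FPKM (SD, n = 3) in STHSC:MA9, 56.4 ± 9.73 (n = 6) in GMP:MA9, 40.6 ± 11.4 (n = 4) in CMP:MA9 and 39.3 ± 10.9 (n = 6) in MPP:MA9, and its F test did not pass (0.0737).

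Among normal cells the same genes were followed along the hierarchy. All 9 members passed the F test over the 6 groups, where 78.4% of 12367 genes did. For Bmi1, Eed and Rnf2 the adjusted p lay between 0.0439 and 0.0496, and these calls were lost in 17, 19 and 24 of the 30 fits that left out 1 sample. Without LT-HSC and ST-HSC replicates 4 and 5, Eed and Rnf2 did not pass (0.102 and 0.0826). Ezh2 (0.0238) was lost without LT-HSC replicate 1 or 2 (0.0584 to 0.0588) and Cbx8 (0.0245) without CMP replicate 3 or MEP replicate 4 (0.0512 to 0.0513). Over 6 comparisons of neighbouring populations, 17 of 54 tests passed.

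Cbx2 traced the sharpest course. LT-HSC held 4.56, 3.32, 3.76, 1.68 and 3.22 FPKM. It rose from ST-HSC to MPP by 0.84 ± 0.14 on the log2 scale (adjusted p = 0.000139), fell from MPP to CMP by 0.67 (0.00144) and fell from CMP to GMP by 1.53 (5.75e-09), while MEP stood at 4.3, 3.82, 4.75 and 4.28 FPKM and differed from CMP by -0.27 ± 0.16 (0.198). GMP was lower than MEP by -1.25 ± 0.16 (1.31e-07) with no overlap. Cbx7 was likewise lower in GMP than in CMP (-1.10 ± 0.21, adjusted p = 0.000134) and than in MEP (-1.22 ± 0.22, 4.1e-05). Its rise from ST-HSC to MPP (0.57 ± 0.20, 0.0435) did not pass without LT-HSC and ST-HSC replicates 4 and 5 (0.34, 0.261) and was lost without any 1 sample other than MPP replicate 1 and ST-HSC replicates 1 and 2 (0.0545 to 0.143). Cbx8 was lower in MEP than in CMP (-0.74 ± 0.24, 0.0207), a call lost without CMP replicate 3 or MEP replicate 3 or 4 (0.066 to 0.0772).

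Ezh1 changed at 5 of the 6 comparisons. It was lower in ST-HSC than in LT-HSC (-0.51 ± 0.13, adjusted p = 0.0143), higher in MPP than in ST-HSC (0.55 ± 0.13, 0.00295), lower in CMP than in MPP (-0.39 ± 0.13, 0.0369) and lower than CMP in both GMP (-0.58 ± 0.13, 0.000988) and MEP (-0.43 ± 0.14, 0.0215). LT-HSC held 13.37, 23.63, 18.13, 13.45 and 15.06 FPKM and ST-HSC 12.49, 10.42, 14.9, 9.39 and 9.68, so that these groups overlapped. The changes from CMP to GMP and to MEP were not called after the correction for GC content and length (-0.26, 0.0743, and -0.13, 0.415), and the change from CMP to MEP was lost without CMP replicate 1 or MEP replicate 2 or 3 (0.054 to 0.0693). The change from MPP to CMP was lost without any 1 sample other than CMP replicate 1 and MPP replicates 1 and 3 (0.0589 to 0.0796). Ezh2 passed in none of the 6 comparisons with all samples. Without LT-HSC and ST-HSC replicates 4 and 5 it was higher in ST-HSC than in LT-HSC (0.65, adjusted p = 0.00816, against 0.39 and 0.0736 with them) and lower in MPP than in ST-HSC (-0.43, 0.0214, against -0.26 and 0.179). Its group means ran from 79.2 ± 20.2 FPKM in LT-HSC to 111 ± 7.88 in MEP. Bmi1 was lower in GMP than in MEP (-0.53 ± 0.18, 0.016), and 0.0516 without MEP replicate 1.

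From LT-HSC to ST-HSC, Suz12 was higher by 0.37 ± 0.10 (adjusted p = 0.0204) and Rnf2 by 0.27 ± 0.09 (0.0475). In these 2 groups samples with the same replicate number deviated together, and with the number as a block Rnf2 no longer passed (0.27, 0.0724). Without replicates 4 and 5 of both groups neither passed (0.33, 0.0695, for Suz12 and 0.34, 0.0537, for Rnf2). Leaving out LT-HSC replicate 4 or 5 or ST-HSC replicate 2 took Suz12 to 0.056 to 0.0699, and Rnf2 was lost without any sample but LT-HSC replicate 2 and ST-HSC replicate 4 (0.0552 to 0.118). After median-ratio scaling neither passed (0.143 and 0.436). Without the same samples Suz12 was lower in MPP than in ST-HSC (-0.34, 0.017, against -0.25 and 0.0759 with them). Suz12 was also higher in CMP than in MPP (0.35 ± 0.10, 0.0152), a call lost without CMP replicate 3 (0.0531). Of all genes tested, 9.19% passed from LT-HSC to ST-HSC (7.51% higher, 1.68% lower), beside 2 members higher and 1 lower. From ST-HSC to MPP the share was 18.9% (14.5% higher, 4.41% lower), beside 3 members higher. From MPP to CMP it was 14.5% (7.07% higher, 7.41% lower), beside 1 member higher and 2 lower. From CMP to GMP it was 36.7% (9.61% higher, 27.1% lower), beside 3 members lower, and from CMP to MEP it was 31.6% (8.55% higher, 23.0% lower), beside 2 members lower. Between GMP and MEP it was 46.7% (21.7% higher in GMP and the rest lower), beside 3 members lower in GMP. These splits moved with the scaling: median-ratio scaling took the share of higher genes among those passing from 81.7% to 57.2%, from 76.7% to 53.6%, from 26.2% to 51.0% and from 27.1% to 49.6% for ST-HSC, MPP, GMP and MEP, each against the population before it.

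Ordered by mean level over all 10 groups, most neighbours did not differ by more than the larger of their SDs. For Eed, Suz12 and Rnf2 this held for all 9 pairs of neighbours, for Bmi1, Cbx8, Ezh1 and Ezh2 for 8, for Cbx7 for 7 and for Cbx2 for 6. The larger steps lay between MPP and CMP, between CMP and ST-HSC and between LT-HSC and GMP for Cbx2. For Bmi1 the step lay between GMP (11 FPKM) and GMP:MA9 (9.16), with the means of all normal groups above and those of all leukaemia groups below. The samples of GMP and GMP:MA9 overlapped, and their difference did not pass (limma, log2 change -0.24 ± 0.14, adjusted p = 0.145). For Ezh2 it lay between GMP:MA9 (56.4) and CMP:MA9 (40.6), and again the 6 normal groups held the 6 highest ranks.

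The other subunits of both complexes were read from lists made by name. Of 22 further PRC1 genes, 14, 16, 15 and 14 passed (ST-HSC, MPP, CMP, GMP), beside 48.4%, 62.5%, 59.8% and 58.4% of all genes. As lower, 11, 13, 14 and 8 of the 22 passed. Of all genes, 24.6%, 34.8% and 28.7% passed as lower at ST-HSC, MPP and GMP, and 4530 of 12600 did at CMP. The median log2 change of the 22 genes over the 4 origins was -0.46, beside -0.08 for all genes. Of the 22, 6 were higher and 13 lower in that mean, where 77.3% of all genes passed (34.4% higher and 42.9% lower). The largest changes were -2.07 ± 0.10 for Pcgf6, a PCGF protein of non-canonical PRC1 (adjusted p = 3.78e-20), -1.95 ± 0.10 for Cbx6 (2.1e-19), -1.58 ± 0.11 for the Polyhomeotic gene Phc1 (5.53e-15), -1.46 ± 0.12 for Scml2 (6.42e-14), -1.17 ± 0.20 for Auts2 (2.02e-06) and -1.02 ± 0.13 for Pcgf2, the closest relative of Bmi1 (1.53e-08). Among the PCGF genes Bmi1 held 15.3% to 17.9% of the summed FPKM in the leukaemia groups on average and 17.5% to 25.2% in the normal groups. Phc1 fell by 2.37, 2.05 and 2.00 at ST-HSC, MPP and CMP, while the difference at GMP was 0.09 ± 0.21 (adjusted p = 0.744) and the change differed among origins (F test, 1.7e-07).

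All 7 further PRC2 genes passed in the mean over origins, 3 higher and 4 lower, where 77.3% of all genes did. Jarid2, which recruits PRC2 to its targets, rose at each origin, by 0.67, 1.31, 1.08 and 0.69 on the log2 scale, and its mean level was 72.7 to 85.6 FPKM in the leukaemias against 29.7 to 48.9 in the normal groups. Mtf2, a Polycomb-like recruiter, fell at each origin by 1.01, 1.41, 1.09 and 1.40, and its relative Phf1 rose by 0.72, 0.53 and 1.18 at MPP, CMP and GMP. The histone chaperones Rbbp7 and Rbbp4 had mean changes of -1.12 ± 0.09 (adjusted p = 1.36e-13) and -0.49 ± 0.06 (1.17e-08), and Aebp2 of -0.45 ± 0.05 (3.13e-09). None of the passing changes of these genes, 78 in PRC1 and 30 in PRC2, turned sign after median-ratio scaling or GC and length correction.

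**Figure D4:**
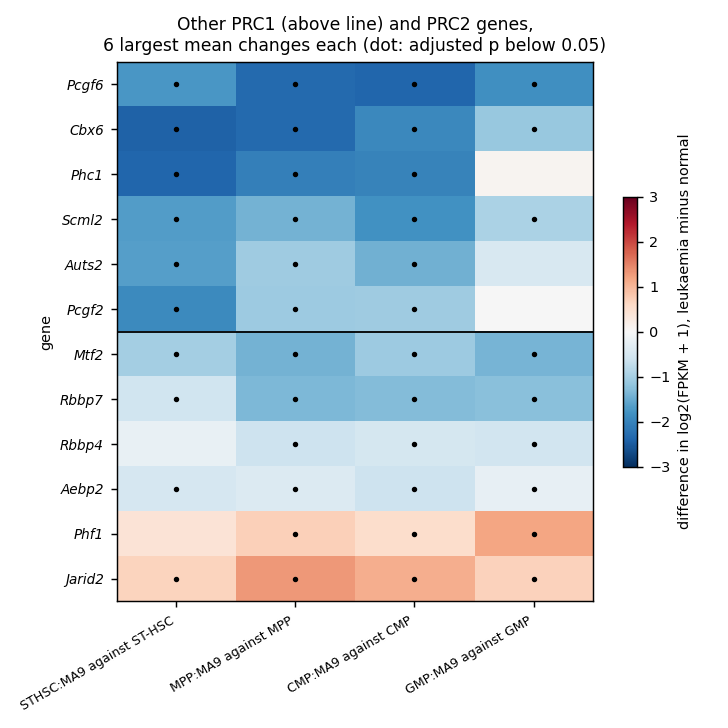
Difference in log2(FPKM + 1) between each leukaemia and its normal cell (colour scale, red higher in the leukaemia) for the 6 further PRC1 genes and the 6 further PRC2 genes with the largest mean changes (rows) at the 4 origins (columns), with a dot at an adjusted p below 0.05. Pcgf6 and Cbx6 were lower and Jarid2 was higher at all 4 origins.

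Of 8 genes for enzymes that remove the Polycomb marks or for partners of these enzymes, 7 were tested. In the mean over origins 4 passed, where 77.3% of all genes did. The deubiquitinase Bap1 was lower (-0.66 ± 0.06, adjusted p = 4.15e-12), the demethylase Kdm6b was higher (0.72 ± 0.13, 9.83e-06), and Foxk1 and Foxk2, partners of Bap1, had changes of 0.55 and -0.50. Of 11 known Polycomb targets, 7 were tested and all passed in the mean over origins, 6 higher and 1 lower, with a median log2 change of 1.37 beside -0.08 for all genes, of which 77.3% passed and 34.4% were higher. The 6 largest were Igf2bp3 (4.00 ± 0.08, adjusted p = 2.1e-31), Hoxa10 (2.38 ± 0.13, 3.16e-18), the cell cycle inhibitor Cdkn1a (2.23 ± 0.20, 1.88e-12), Hoxa9 (1.37 ± 0.13, 1.14e-11) and Hoxa7 (1.10 ± 0.09, 2.64e-13), with Hmga2 lower (-1.48 ± 0.14, 3.39e-12). Igf2bp3 averaged 0.242 to 0.386 FPKM in the matched normal groups and 18.6 to 22 in the leukaemias. It thus reached the required mean of 1 FPKM only through the leukaemias. Hmga2 averaged 0.557 to 0.988 in the leukaemias and reached that mean through the normal groups. The targets not tested were under it, so the counts and the median depend in part on which genes could enter. The HOXA genes are also known targets of MLL fusion proteins, and the list holds both kinds of target. Cdkn2b and Cdkn2a, cell cycle inhibitors of 1 locus that Polycomb is known to silence, were too low to be tested between leukaemias and normal cells. Cdkn2b was 0 to 0.19 FPKM in the 30 normal samples and 0.28 to 5.08 in the 19 leukaemias, without overlap, and Cdkn2a was 0 to 0.08 and 0 to 1.34. The share of all genes that did not overlap between these sets of samples was not counted. At the single origins 39.6% to 48.4% of the genes tested did not overlap. Those comparisons held fewer samples and left out Cdkn2b as too low, so they give no like background for it. The separation is therefore only a description, for a gene named after its values were seen. Among the leukaemias Cdkn2b was tested and did not pass (F test, adjusted p = 0.423).

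Genes most alike each member were found by Pearson's r on log2(FPKM + 1) over all 49 samples among 12155 genes, as a description, since the samples share groups and library preparation. Ezh2 was most like Chek1 (r = 0.94), Rif1 (0.92) and Alms1 (0.91), the first of which encodes a checkpoint kinase of the cell cycle, and within the 19 leukaemias alone the r with Chek1 was 0.86. Cbx2 was most like Lzts2 (0.95), Egfl7 and Sox4 (both 0.94), but within the leukaemias, where Cbx2 is low, these values were 0.31, 0.13 and 0.20. Ezh1 was most like Txnip (0.88), Zbtb4 and Nfatc2 (both 0.85), and Zbtb4 was also among the genes most like Cbx7 (0.79). Among the genes most like Bmi1 were Tmem39b and Mta1 (both 0.86). The closest genes reached 0.85 for Suz12 (Hnrnpa3), 0.75 for Rnf2 (Cep57l1), 0.71 for Eed (Arcn1) and 0.70 for Cbx8 (Rapsn). Between members, r was 0.80 for Bmi1 and Cbx2, 0.73 for Ezh1 and Cbx7, 0.73 for Ezh2 and Rnf2 and -0.63 for Ezh1 and Ezh2.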

How the data were processed

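The authors sorted cells into lysis buffer, amplified total RNA with the NuGen Ovation kit, which does not mark strand, and sequenced it on an Illumina HiSeq instrument. The deposited values are FPKM that the authors estimated with RSEM, and the submitters' processing notes name the mm9 build. The aligner and annotation behind them are not given in the sources used here. The table has 68 columns, of which 49 were matched to samples by name, and the other 19 were left out. Values were tested on log2(FPKM + 1), which understates changes of low genes, with two-sided moderated tests and F tests of limma 3.58.1 (with an intensity trend, R 4.3.3). Genes entered a fit when their mean over its samples reached 1 FPKM, with Benjamini-Hochberg adjustment over all of them. A gene passed at an adjusted p below 0.05. The 4 leukaemia and 4 matched normal groups shared a fit, the 19 leukaemias a second and the 30 normal samples another. The authors used edgeR on counts, which were not used here.

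Samples came from individual mice in repeat experiments that the labels do not assign, so p-values measure the spread between samples within groups. A difference between experiments that falls together with the groups is not part of that spread. Replicate numbers were taken to pair samples where every same-numbered pair deviated together with r above 0.1. This held for ST-HSC and LT-HSC (5 pairs, r = 0.142 to 0.683), while for GMP and CMP it held for 4 of 5 pairs (lowest r 0.048). Relative depth came from the value steps of 4335 low genes and gives no counts, so no counting interval was computed. Fits were tested on simulated data. The members, lists and alternatives were chosen with earlier results of these data known. All 9 members are named, other genes come from lists of Polycomb, target, cell cycle and marker genes (up to 6 that passed, by size of change) and, for each member, up to 3 genes most alike. Some genes of these lists are not reported here. Cdkn2a, Cdkn2b, Gata1, Cd3e and Cd3g were named after their values were seen. Alternatives were a pseudocount of 0.1, no filter, median-ratio scaling, fitting the compared groups alone, blocking on the replicate number, a correction for GC content and length (a spline with 5 degrees of freedom), both together, an added threshold of 1 on the absolute log2 change, leaving out each sample, and leaving out LT-HSC and ST-HSC replicates 4 and 5. Python 3.11.15 (numpy 2.4.6, pandas 2.3.3, matplotlib 3.10.9) served for the rest. Gene positions come from GENCODE M1.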

Additional observations from a re-analysis of the deposited data

Results flagged for a closer look

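In 8 of 81 groups of 4 to 6 samples, 1 sample stood far from the others by Dixon's test, which chance alone does in about 1 group in 20. Bmi1 was 11.67 FPKM in ST-HSC replicate 4 against 15.38 to 16.12 in the others, and Cbx2 was 1.87 in GMP:MA9 replicate 2 against 0.3 to 0.74. Cbx8 was 2.75 in CMP replicate 3 against 1.24 to 1.62, and Ezh1 was 23.27 in GMP:MA9 replicate 3 against 15.07 to 16.79. MPP replicate 3 was low in both Ezh2, at 63.72 against 85.87 to 91.63, and Eed, at 15.55 against 24.85 to 30.18. Ezh2 was 86.55 in GMP replicate 1 against 93.82 to 95.03, and Eed was 41.11 in GMP:MA9 replicate 4 against 27.72 to 32.72.

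For 4 members the size of the leukaemic change differed among origins (limma F test, adjusted p = 0.0135 for Bmi1, 2.93e-07 for Cbx2, 0.00169 for Cbx7 and 0.000668 for Ezh1), where it did for 38.0% of all genes. The call for Bmi1 was lost after median-ratio scaling, as given above. Cbx2 started from 1.24 ± 0.368 FPKM in GMP and from 4.7 to 9.2 in the other origins. Ezh1 and Cbx7 started lowest in GMP, at 8.18 ± 1.11 and 0.966 ± 0.32 FPKM (SD, n = 5).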

How the results depend on the processing

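Of the 17 member changes that passed at the 4 origins, 14 passed in the same direction in every alternative apart from the added log2 threshold, and the other 3 were Eed at ST-HSC, Cbx8 at MPP and Cbx2 at GMP. With an absolute log2 change above 1 also required, 1, 2, 2 and 1 members passed (ST-HSC, MPP, CMP, GMP) in place of 4, 5, 4 and 4, 1 in the mean over origins in place of 9, 1 of 48 leukaemia pair tests in place of 4 and 4 of 54 normal tests in place of 17. Among leukaemias, the 2 members passing the F test became 1 without a filter and 0 with GC and length correction, and the 4 pair tests became 2 and 0. With the replicate number as a block, where the numbers do not pair the samples, those counts were 0 and 1, and with block and correction 0 and 0. Of the normal tests, 11 passed after GC and length correction and 10 with the replicate block added, and 5 of 9 members passed the F test after median-ratio scaling. The block changed no other member count by over 1.5 times. The cause of these shifts was not tested.

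When each sample was left out in turn, the members passing ranged from 3 to 5 at ST-HSC, 4 to 5 at MPP, 4 to 7 at CMP (7 without CMP:MA9 replicate 3) and 3 to 4 at GMP. The range was 7 to 9 for the mean change, 4 to 5 for differences among origins, 0 to 2 among leukaemias, 1 to 5 for leukaemia pairs, 5 to 8 among normal groups and 13 to 19 for normal steps. Of recalculated values of changes that had not passed, 101 turned sign, and of those that had passed none did. Scaling moved the share of higher genes among all called from 26.2% to 51.0% for CMP to GMP and from 76.7% to 53.6% for ST-HSC to MPP. Depth is known in relation only, which limits genes at low FPKM such as Cbx8 most.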
